A study of Anguilla anguilla and Anguilla rostrata with 84 samples.

Results

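The Gironde is the estuary into which the Dordogne and the Garonne flow, and eels were caught in all 3 waters. The liver profiles of 5 wild European eels (Anguilla anguilla) labelled as caught in the Gironde estuary were compared with those of 5 from the Dordogne river and 5 from the Garonne river. These 15 fish of the 84 in the series were chosen by their labelled collection site, and all 992 contigs on the arrays were used. A contig is an assembled transcript sequence, here printed in 3 spots. The study hybridised liver RNA of European eels and of 20 American eels, from 7 wild sites and 10 laboratory groups, each fish on a slide of its own against a common pool. That pool held RNA of 30 wild eels of Certes, another French site. Each value below is a log2 ratio of a fish over this pool, so a difference of 1 between groups is a doubling.

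The estuary group was also set beside a laboratory contrast in the same species, namely 5 eels kept in water at a salinity of 18 per mil against 4 eels of the laboratory control group. The labels name no other agent, genotype or strain for these 5 groups, and they give no salinity for the control water or for the wild sites, nor the age, sex or life stage of the fish. All 5 groups share the tissue and the pool. There was 1 estuary and there were 2 rivers, so the replicates are fish within a site and the site itself was not replicated. The study chose its wild sites along a gradient of metal and organic contamination. Salinity, contamination and any other property of a site cannot be told apart in these fish.

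European eels hatch at sea and grow in coastal waters, estuaries and rivers, and they can live in both fresh and salt water. A fish that moves into saltier water loses water and gains salt across its body surface. Gill, kidney and gut carry out the regulation, while the liver supplies fuel and makes plasma proteins and is also the main site of detoxification. No file gives the gene behind a contig, and 0 of 992 contig names were found in the reference gene table. Contigs therefore appear under their identifiers alone and nothing is said of their function. For the same reason the labelled liver tissue was not checked against marker genes.

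The arrays of the estuary fish were brighter in the pool channel, which should hold the same RNA on every slide. The mean log2 background-subtracted pool signal was 9.21 ± 0.90 (SD, n = 5, range 8.19 to 9.98) on Gironde arrays and 6.76 ± 1.62 (SD, n = 10, range 4.07 to 9.24) on river arrays, a difference of 2.45 (two-sided exact permutation test over 3003 splits of the fish, p = 0.00999, adjusted p = 0.0167 over 5 array measures). The signal of the fish channel averaged 8.17 on Gironde arrays and 7.39 on river arrays, which overlapped (exact permutation p = 0.308). Contigs with all 3 spots at the scanner limit were more frequent on Gironde arrays in both channels. They averaged 9.2 on Gironde and 0.9 on river arrays in the pool channel, and 2.4 on Gironde and 0.6 on river arrays in the fish channel (exact permutation test, adjusted p = 0.00582 for each). Between 846 and 992 contigs on Gironde arrays and between 759 and 990 on river arrays exceeded background in both channels, with medians of 980 and 955.5 (exact permutation p = 0.396). On high salinity arrays 730 to 977 did so, and on control arrays 599 to 842. Arrays have no read depth, and their number limits the precision of the values below.

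**Figure D1:**
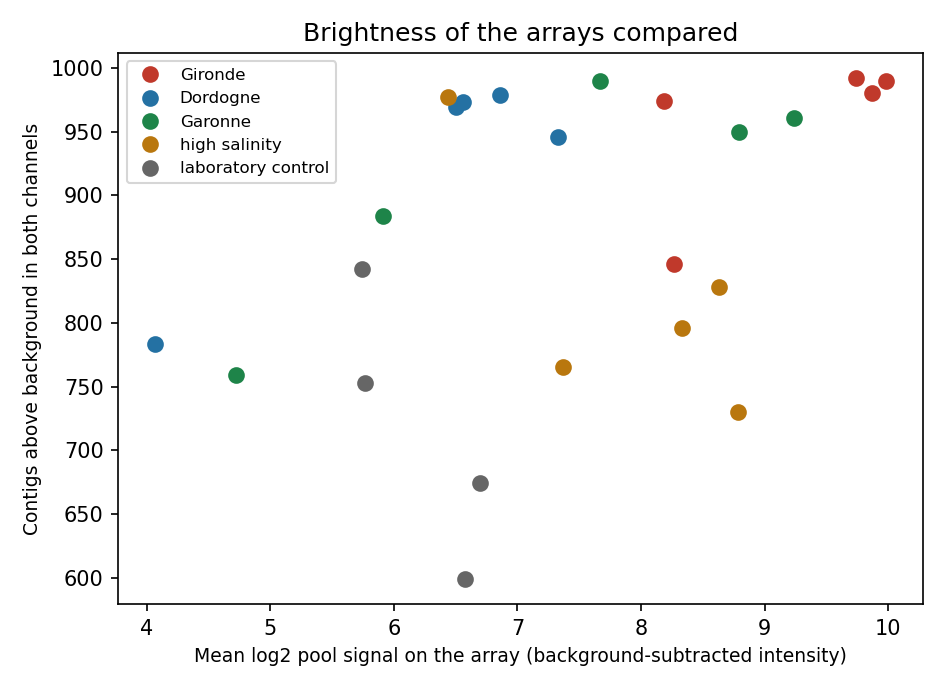
Each point is 1 array, with the mean log2 pool signal (background-subtracted intensity) on the horizontal axis and the number of contigs above background in both channels on the vertical axis, coloured by group. Gironde arrays lie between 8.19 and 9.98 on the horizontal axis, a range that holds 2 of the 10 river arrays, both of Garonne fish.

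Garonne replicates 4 and 5 stood apart. Their profiles across the 992 contigs correlated at 0.11 to 0.28 with those of the other 13 French fish. Gironde fish correlated at 0.48 to 0.61 with each other, Dordogne fish at 0.41 to 0.61 and Garonne replicates 1 to 3 at 0.49 to 0.67. Gironde fish correlated with Garonne replicates 1 to 3 at a median of 0.524 and with Dordogne fish at a median of 0.422, as a description over fish that share the pool. In the laboratory arm, the scan of high salinity replicate 4 was also stored under the fifth control fish. The authors' processed values of high salinity replicate 4 matched this scan and those of the fifth control fish matched no scan, so the fifth control fish was left out. Values without these fish are given beside the results they bear on.

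The estuary fish differed from the river fish at 11 of 992 contigs, 1.11% of those tested, and the changes ran in both directions. Of these, 6 were higher and 5 lower in the Gironde than in the mean of the Dordogne and the Garonne, which had equal weight (limma, Benjamini-Hochberg adjusted p under 0.05). The spread between fish was estimated over 35 wild fish, of which 20 were American eels. With the 15 French fish alone, 13 contigs passed, 8 of them among the 11. One of the 11 was saturated and has no measured size. The sizes of the other 10 were 0.50 to 2.26 on the log2 scale, with a median of 0.983, against a median of 0.152 over all contigs and a median SE of 0.162. At an unadjusted p under 0.05, 79 contigs were higher and 58 lower, 13.8% of those tested. Only 12 contigs differed by more than 1, whether or not they passed the test. The contigs that passed numbered 2, 4, 3 and 2 in 4 equal classes of mean signal, dimmest to brightest. In whole-liver RNA, a change in the makeup of cells and a change per cell cannot be told apart.

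**Figure D2:**
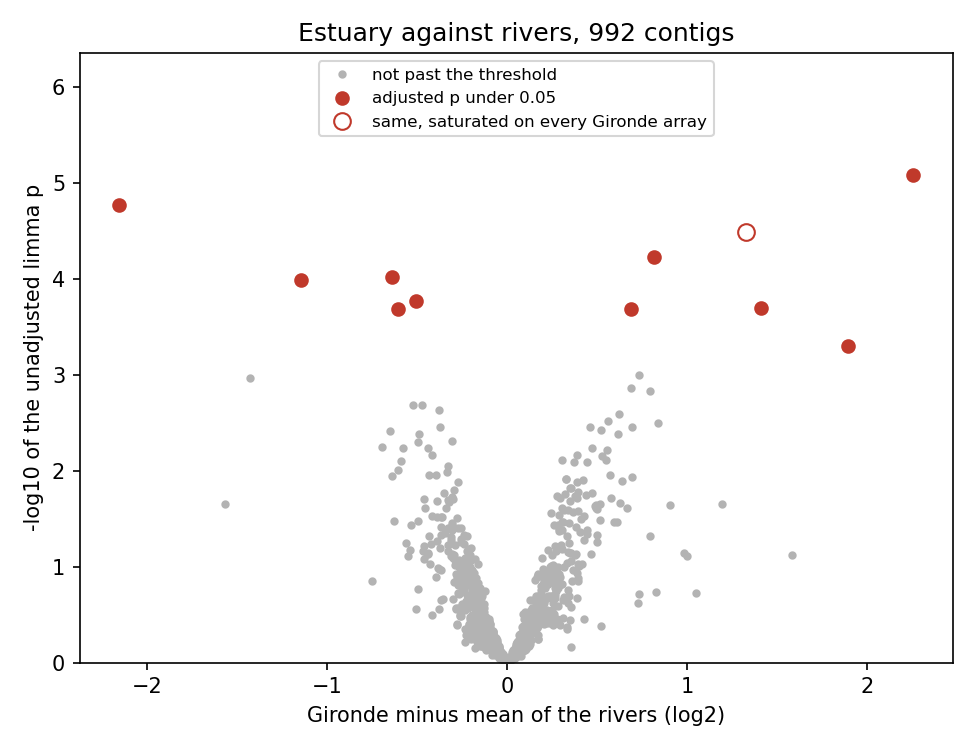
Each point is 1 of 992 contigs, with the Gironde minus river difference (log2) on the horizontal axis and -log10 of the unadjusted limma p on the vertical axis. The 11 contigs past an adjusted p of 0.05 are in red, and the open circle marks the 1 contig saturated on every Gironde array, whose position on the horizontal axis is not a measured size.

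contig_14911 had the largest increase. Its log2 ratios were 0.90, 3.39, 2.94, 1.26 and 1.13 in the 5 Gironde fish. They were -0.78, -0.09, -0.0043, -0.19 and -0.22 in Dordogne fish, and -0.44, -0.17, -0.39, -0.18 and -0.84 in Garonne fish. Every Gironde fish lay above every river fish, and Gironde replicates 2 and 3 lay far above the other 3. The means were 1.93 ± 1.15 in the Gironde, -0.25 ± 0.30 in the Dordogne and -0.40 ± 0.27 in the Garonne (SD, n = 5 each), and the difference of 2.26 (SE 0.43, limma adjusted p = 0.00815) is a 4.77-fold higher ratio. The fish-channel signal of contig_14911, before normalization, ran from 742 to 11617 on Gironde arrays and from 37 to 886 on river arrays. Its pool signal ran from 615 to 1646 on Gironde arrays and from 34 to 1063 on river arrays. The call held when each of the 15 fish was left out in turn, with differences of 1.89 to 2.51, and was lost with no background subtraction (1.56, adjusted p = 0.0606).

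contig_2179 had the next largest increase, and in the same fish. Its log2 ratios were 0.03, 3.05, 2.31, 0.65 and -0.22 in Gironde fish. In Dordogne fish they were -0.02, -0.85, -0.44, -0.86 and -0.81, and in Garonne fish -0.54, -1.31, -1.11, -0.32 and -1.07. Gironde replicates 2 and 3 were again the highest, and Gironde replicate 5 lay below Dordogne replicate 1. The means were 1.16 ± 1.44 in the Gironde, -0.59 ± 0.37 in the Dordogne and -0.87 ± 0.42 in the Garonne (SD, n = 5 each). The difference was 1.90 (SE 0.49, limma adjusted p = 0.0454, a 3.72-fold higher ratio), close to the threshold. Its SE is likewise pooled over the wild sites, although the Gironde spread was far larger than that of either river. The call was lost on leaving out any 1 of 11 of the 15 fish and in 17 of all 25 settings. Among fits leaving out 1 fish, the difference of contig_2179 was smallest without Gironde replicate 2 (1.42), then without Gironde replicate 3 (1.61). With no background subtraction it was 1.18 (limma adjusted p = 0.359).

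contig_20175 had the largest decrease. Its log2 ratios were -1.59, -2.51, -0.99, -0.91 and -3.48 in Gironde fish. The values were -0.30, 0.96, 1.02, -0.12 and 1.83 in Dordogne fish, and 0.0079, 0.33, -0.95, 0.37 and -0.58 in Garonne fish. All 5 Gironde fish were below the pool, and 9 of 10 river fish lay above all of them. The exception was Garonne replicate 3, which fell between Gironde replicates 3 and 4. The 3 spots of contig_20175 disagreed in Gironde replicate 4 (SD 1.4 on the log2 scale) and Dordogne replicate 1 (SD 1.16), so these 2 ratios are uncertain. The means were -1.90 ± 1.09 in the Gironde, 0.68 ± 0.88 in the Dordogne and -0.17 ± 0.58 in the Garonne (SD, n = 5 each). The difference was -2.16 (SE 0.43, limma adjusted p = 0.00845), that is, 0.224 times the river ratio. For contig_20175, fish-channel signals reached at most 582 on Gironde arrays and 6961 on river arrays and overlapped, the lowest of all being on a river array, while pool signals ran from 1250 to 3258 on Gironde arrays and from 58 to 2657 on river arrays. The call held on leaving out each of the 15 fish, with differences of -2.40 to -1.76. It was lost with no background subtraction (-1.42, adjusted p = 0.0534) and with the authors' values (-2.37, adjusted p = 0.0854).

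contig_33258 had the next largest decrease. Its log2 ratios were -1.60, -1.47, -1.02, -0.54 and -0.25 in Gironde fish. They were 0.17, -0.40, 0.21, 0.78 and 0.35 in Dordogne fish, and -0.16, 0.19, -0.28, 0.74 and 0.11 in Garonne fish. Gironde replicate 5 overlapped with 2 of the river fish, and the other 4 did not overlap with any. The difference was -1.15 (SE 0.26, limma adjusted p = 0.0168), that is, 0.452 times the river ratio. This contig was dim, with fish-channel signals of 37 to 410 on Gironde arrays and 39 to 1332 on river arrays. The highest was in Garonne replicate 4, whose 3 spots disagreed (SD 2.87 on the log2 scale), so its ratio of 0.74 is uncertain. The pool signals of contig_33258 reached 842 on Gironde arrays and 548 on river arrays, and the offset of 50 in the background correction shrinks ratios of dim contigs. The call was lost without Gironde replicate 1 (-0.99), 2 (-1.02) or 3 (-1.14). It was also lost with no background subtraction (-0.40, adjusted p = 0.119) and with the authors' values (-2.13, adjusted p = 0.169), so the size depended on the processing.

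**Figure D3:**
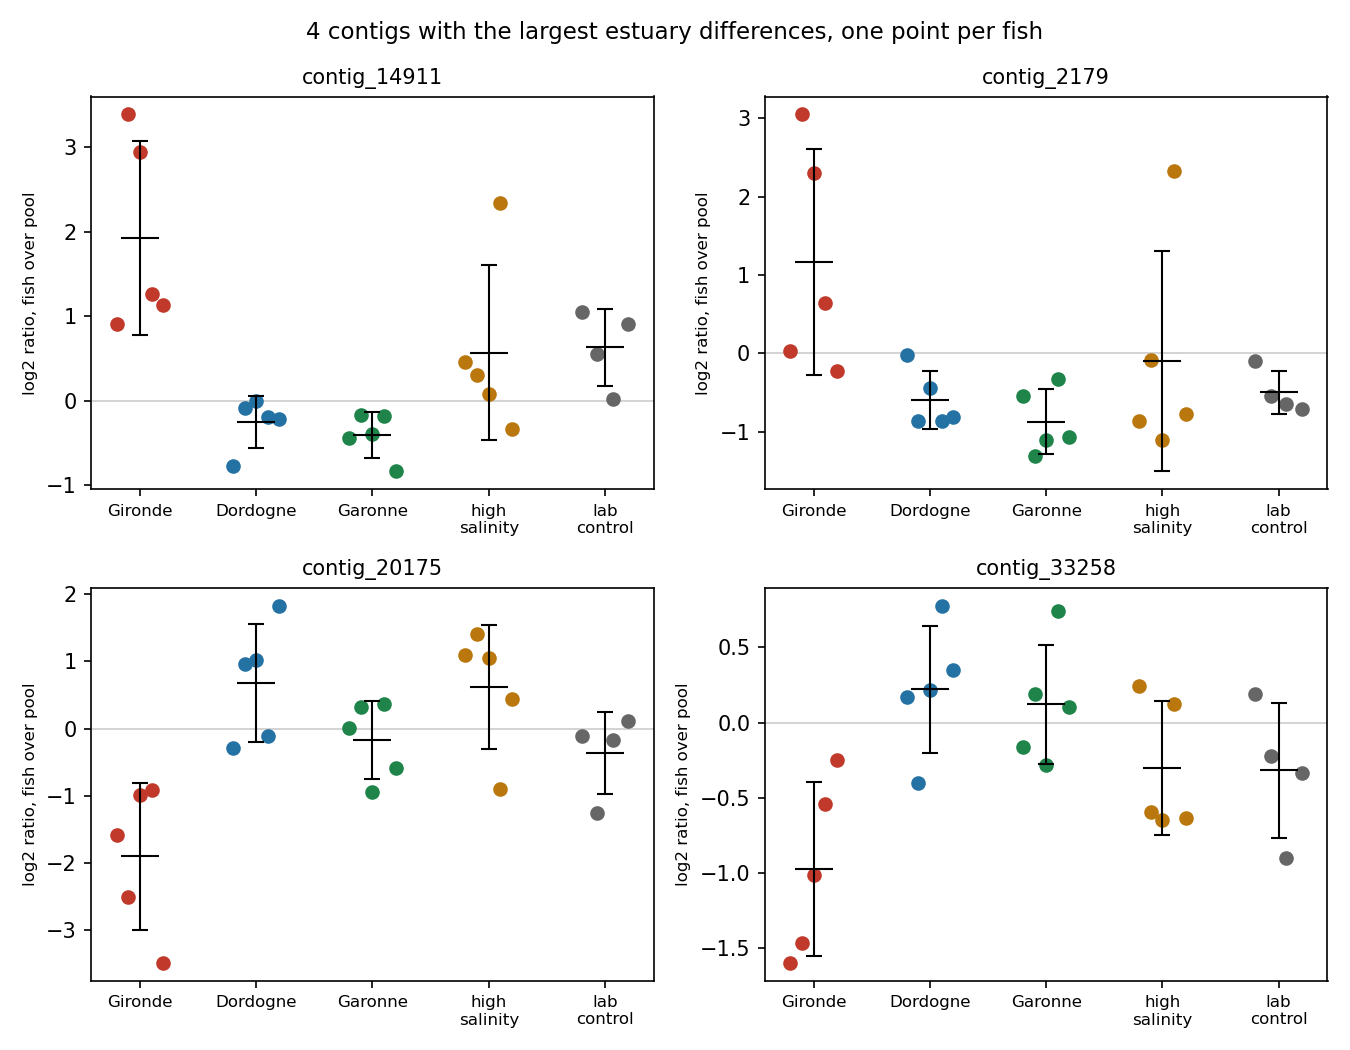
Each panel shows 1 contig, with the log2 ratio of fish over pool on the vertical axis and 1 point per fish in the Gironde, Dordogne, Garonne, high salinity and laboratory control groups. Bars give the mean and the SD. All 5 Gironde points lie above the river points for contig_14911 and below 9 of the 10 for contig_20175.

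Of the other 7 contigs past the threshold, those with a measured size had differences of 0.69 to 1.41 where they were higher and of -0.64 to -0.50 where they were lower. The saturated one, which was called higher, had all 3 spots at the upper limit of the scanner, 65535, in both channels on 5 of 5 Gironde arrays. Its ratio there is not a measurement. Leaving out the 17 contigs saturated on any of the 15 arrays gave 10 calls, 5 higher and 5 lower. Fish of the Gironde did not overlap with any river fish for 3 of the 11, while among all 992 contigs this held for 3 with the Gironde higher (0.302%) and 5 with it lower (0.504%). In 10 of the 11, the saturated one included, all 5 Gironde fish lay on the same side of the river mean. Picking contigs by a shifted Gironde mean favours this, and its share over all contigs was not computed. The Gironde mean lay outside both river means in all 11, as it did in 73.6% of all contigs.

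Since pool brightness moved with the estuary, the same differences were fitted with the mean pool signal of each array as a covariate, which left 4 calls, 3 higher and 1 lower, of which 3 were among the 11. contig_14911 (2.31) and contig_20175 (-2.28) kept their calls, both with a limma adjusted p of 0.0228. contig_2179 (2.19, adjusted p = 0.0623) and contig_33258 (-0.77, adjusted p = 0.223) lost them. The 2 river arrays as bright as those of the Gironde were Garonne replicates 1 and 3. For contig_14911 they had -0.44 and -0.39, below the lowest Gironde value of 0.90. For contig_20175 they had 0.0079 and -0.95, of which the first lay above all Gironde fish and the second within the Gironde range of -3.48 to -0.91. For contig_33258 they had -0.16 and -0.28, on either side of the highest Gironde value of -0.25. Without Garonne replicates 4 and 5, 12 contigs passed, 10 of them among the 11. contig_14911 (2.22), contig_20175 (-2.14) and contig_33258 (-1.05) stayed past the threshold in that fit, and contig_2179 (1.95, adjusted p = 0.0668) did not.

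Both rivers were also taken one at a time, with the same Gironde fish in each comparison, so the 2 results are not independent of each other. Against the Dordogne, 7 contigs passed (0.706% of 992), 4 higher and 3 lower in the Gironde, and 11.4% did at an unadjusted p under 0.05. contig_14911 was higher by 2.18 (SE 0.49, limma adjusted p = 0.0252). contig_20175 was lower, at -2.58 (SE 0.49, adjusted p = 0.00494), and contig_33258 at -1.20 (SE 0.30, adjusted p = 0.0483). The contig saturated on every Gironde array, contig_18434, also passed here (adjusted p = 0.000368), and without saturated contigs 4 calls were left. Leaving out 1 fish at a time ended the call of contig_14911 against the Dordogne in 6 of 10 cases, including without Gironde replicate 2 (1.81), and that of contig_33258 in 8 of 10. The call of contig_20175 against the Dordogne held in all 10, between -2.83 and -2.18, and was lost with the authors' values (-2.72, adjusted p = 0.0759). Over all 19 settings against the Dordogne, contig_14911 lost its call in 9 and contig_33258 in 13. The mean log2 pool signal of Dordogne arrays was at most 7.325, below every Gironde array. With pool brightness as a covariate, contig_14911 (2.24, limma adjusted p = 0.0587) and contig_33258 (-0.76, adjusted p = 0.313) lost their calls against the Dordogne. contig_20175 kept its call in that fit (-2.72, adjusted p = 0.0144).

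Against the Garonne, 1 contig passed (0.101% of 992), and 11.9% did at an unadjusted p under 0.05. This was contig_14911, higher by 2.33 in the Gironde (SE 0.49, limma adjusted p = 0.0416). With pool brightness as a covariate contig_14911 lost this call (2.37, limma adjusted p = 0.0974). Its call was lost on leaving out any of Gironde replicates 2 and 3 and Garonne replicates 1, 2, 3 and 5, between 1.96 and 2.39, and also without Garonne replicates 4 and 5 together (2.26, adjusted p = 0.167), and in 12 of 20 settings in all. contig_20175 differed from the Garonne by -1.73 (SE 0.49, adjusted p = 0.0964), contig_33258 by -1.10 (SE 0.30, adjusted p = 0.0929) and contig_2179 by 2.03 (SE 0.57, adjusted p = 0.0929), none of which passed.

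Between the rivers themselves, the Garonne against the Dordogne, limma called 0 of 992 contigs (0%), with a lowest adjusted p of 0.133, while 60 (6.05%) had an unadjusted p under 0.05. This low share depended on the normalization. With median centring 13.6% of contigs had such a p between the rivers, against 7.16% for the Gironde against the Garonne and 23.9% for the Gironde against the Dordogne. Scaling between arrays gave 11.2% between the rivers and the authors' values 11.0%, while leaving out Garonne replicates 4 and 5 gave 5.54% and 0 calls. The median size of the difference was 0.141 between the rivers, beside 0.165 for the Gironde against the Dordogne and 0.164 for the Gironde against the Garonne, all with a median SE of 0.187. Differences of more than 1 numbered 4 between the rivers, 20 against the Dordogne and 12 against the Garonne. For contig_14911 the Garonne minus Dordogne difference was -0.15 (SE 0.49, adjusted p = 0.996), and for contig_20175 it was -0.85 (SE 0.49, adjusted p = 0.778). The median SD between fish was 0.245 in the Gironde, 0.287 in the Garonne and 0.233 in the Dordogne, and the median SD of the 3 spots of a contig on 1 array was 0.139.

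The levels of the called contigs in the other groups are given as a description. Over the 17 groups of the series, the Gironde mean was the highest for all 6 contigs called higher, of which 5 were measurable, and the lowest for 4 of the 5 called lower. It was the highest for 7.36% and the lowest for 7.16% of all 992 contigs. The called contigs were picked by these same Gironde values, so an extreme Gironde rank is in part built in. The shares over all contigs are therefore no test of it. The American eels of the 4 Canadian sites are another species, and levels across species are given as a description.

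For contig_14911, the Gironde mean of 1.93 was followed by St Jean at 0.81 ± 1.23 (SD, n = 5), and both rivers were the lowest of the 17 groups. For contig_2179 the next highest mean was St Pierre at 0.52 ± 1.20 (SD, n = 5), within 1 SD of the Gironde. For contig_20175 the next lowest mean was that of eels exposed to the lower cadmium dose, -0.57 ± 0.92 (SD, n = 5), and the highest that of eels fed the higher dose of polychlorinated biphenyls (PCB), 1.36 ± 0.60 (SD, n = 4). For contig_33258, St Pierre followed the Gironde at -0.82 ± 0.64 (SD, n = 5), a gap well within the SD, and St Jean lay at -0.74 ± 0.39 (SD, n = 5). Means of contig_33258 below both French rivers (Dordogne 0.22, Garonne 0.12) were thus also measured at Canadian sites. They were also measured in laboratory groups, such as the lower cadmium dose (-0.61) and the control (-0.32). Eels fed methylmercury (0.17) or organochlorine pesticides (0.36) were not below both rivers. Only the contrast with the French rivers was tested here.

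**Figure D4:**
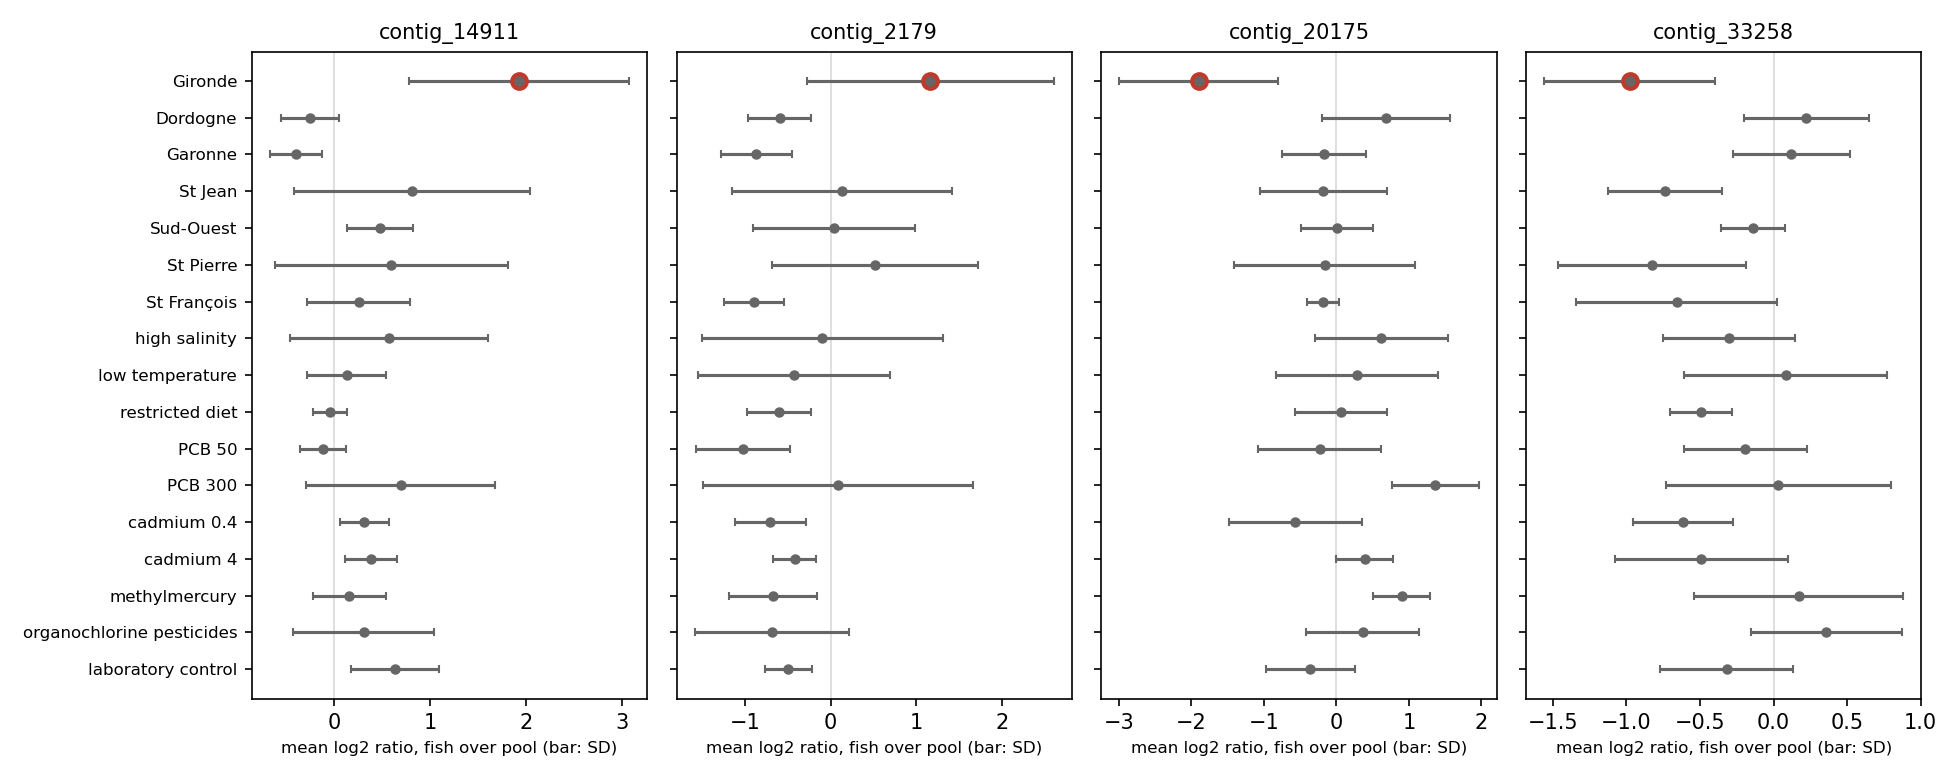
Mean log2 ratio of fish over pool (horizontal axis, bars give the SD) of 4 contigs in each of 17 groups, with the Gironde in red at the top. For contig_14911 the next mean is 0.81 at St Jean, and for contig_20175 the next is -0.57 at the lower cadmium dose.

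The high salinity eels were set beside the estuary eels contig by contig. High salinity fish differed from control fish at 14 of 992 contigs (1.41%), 10 higher and 4 lower, and 12.9% had an unadjusted p under 0.05. Without high salinity replicate 4, 20 contigs passed, 9 of them among the 14. Leaving out saturated contigs gave 11 calls, 9 higher and 2 lower. The mean log2 pool signal ran from 6.44 to 8.78 on high salinity arrays and from 5.74 to 6.70 on control arrays. With pool brightness as a covariate, 20 contigs passed, 12 of them among the 14. No fish is in both contrasts, and they share only the pool. Limma called 0 contigs in both the estuary and the salinity contrast, and 16 contigs had an unadjusted p under 0.05 in both. Of these 16, 5 moved the same way, all higher, and 11 in opposite ways. With so few calls in each contrast, a shared call would be unlikely even if the contrasts were unrelated. The overlap that chance alone would give was not computed for either count. The counts of 0 and 16 are therefore a description, and whether they differ from chance was not tested.

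Among the 6 contigs that were higher in the Gironde, 4 had a positive salinity difference, with a median of 0.167 and a range of -0.40 to 0.40. The 4 include contig_18434 (0.04), whose fish channel was saturated on 5 of 5 high salinity and 4 of 4 control arrays. Its value is not a measured size, and it enters the count and the median. Among the 5 that were lower, 1 had a negative salinity difference, with a median of 0.021 and a range of -0.08 to 0.98. The median salinity difference over all contigs was 0.014. Turned round, 1 of the 10 contigs that were higher at high salinity was higher in the Gironde, with a median estuary difference of -0.12 and a range of -0.42 to 0.10, beside -0.011 over all contigs. Of the 4 that were lower at high salinity, 1 was lower in the Gironde, with a median of 0.045. These 4 include contig_18206, whose fish channel was saturated on 5 of 5 high salinity arrays.

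Over all 992 contigs the estuary difference and the salinity difference correlated at a Pearson r of -0.096 and a Spearman rho of -0.115, and 45.5% had the same sign. This is across contigs, which share the arrays and are not independent replicates. The estuary difference correlated at -0.135 to 0.084 with the differences of the other 8 laboratory treatments from the same 4 control fish, a range that holds the salinity value. With the mean of the other 8 treatments in place of the control, the correlation with salinity was -0.031. On every setting tried the correlation lay between -0.165 and -0.017.

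**Figure D5:**
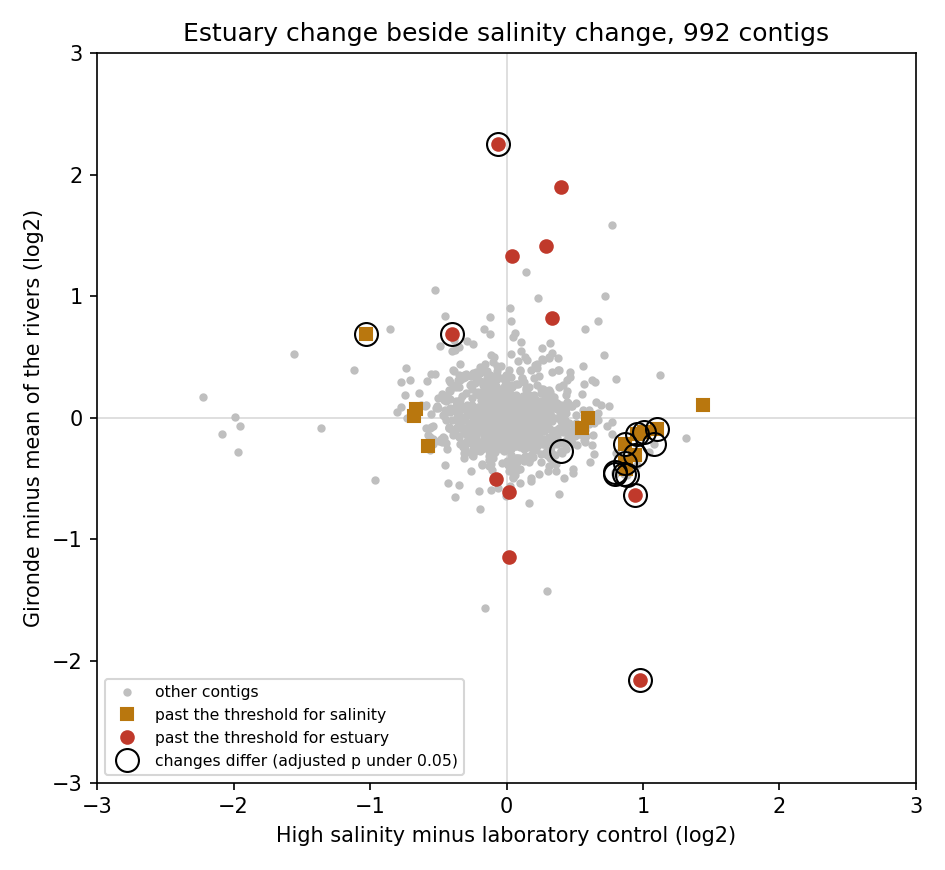
Each point is 1 of 992 contigs, with the high salinity minus control difference (log2) on the horizontal axis and the Gironde minus river difference (log2) on the vertical axis. Red circles passed the test in the estuary contrast, brown squares in the salinity contrast, and rings mark the 17 contigs whose 2 differences differ. No marker carries both colours, and r is -0.096. The sizes of contig_18434 and contig_18206, which were saturated, are not measured.

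The contigs named in the estuary contrast had the following values in the laboratory. contig_14911 was at 0.46, 0.30, 0.08, 2.34 and -0.34 in high salinity fish and at 1.05, 0.55, 0.02 and 0.90 in control fish. Its groups overlapped and differed by -0.06 (SE 0.37, limma adjusted p = 0.976), and the highest value belongs to replicate 4, whose scan is stored under 2 fish. Without that fish the difference of contig_14911 was -0.51 (SE 0.32, adjusted p = 0.50). contig_2179 was at -0.86, -0.08, -1.11, 2.32 and -0.77 in high salinity fish and at -0.09, -0.54, -0.64 and -0.71 in control fish. Replicate 4 stood far above the control range and replicate 2 barely above it, and the difference was 0.40 (SE 0.55, adjusted p = 0.820), or -0.21 (SE 0.50, adjusted p = 0.917) without replicate 4. High salinity replicate 4 and Gironde replicates 2 and 3 were thus high for both of these contigs. The array of high salinity replicate 4 had a mean log2 signal of 10.06 in the fish channel and 6.44 in the pool channel. On the other high salinity arrays the pool channel was the brighter, and the part of this imbalance in the values was not tested.

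contig_20175, the largest estuary decrease, was at 1.10, 1.41, 1.06, -0.90 and 0.44 in high salinity fish. It was at -0.11, -1.26, -0.17 and 0.11 in control fish. Of the 5 high salinity fish, 4 lay above all control fish and replicate 4 did not. The difference was 0.98 (SE 0.49, limma adjusted p = 0.384), or 1.36 (SE 0.49, adjusted p = 0.140) without high salinity replicate 4. The 3 spots of contig_20175 disagreed in control replicate 2 (SD 1.33 on the log2 scale), so its ratio of -1.26 is uncertain. contig_33258 was at 0.24, -0.60, -0.65, 0.13 and -0.64 in high salinity fish and at 0.19, -0.23, -0.90 and -0.34 in control fish, which overlapped and differed by 0.016 (SE 0.34, adjusted p = 0.986).

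The contigs named for salinity did not pass in the estuary. contig_39262 was at 1.16, 0.66, 0.81, 0.91 and 1.02 in high salinity fish and at 0.44, 0.09, -1.08 and 0.15 in control fish. All high salinity fish lay above all control fish, with a difference of 1.01 (SE 0.18, limma adjusted p = 0.00119), although its background-subtracted control signals, from -100 to 78, were at or near background, so this size is uncertain. Over all settings the difference of contig_39262 ran from 0.34 (no background subtraction) to 1.49 (the authors' values). Its call was lost with median centring (adjusted p = 0.123), the authors' values (adjusted p = 0.571) or only the groups compared (adjusted p = 0.158). In the estuary it was at -0.50, -0.20, -0.19, 0.46 and 0.24, against -0.12 to 0.23 in the Dordogne and -0.14 to 0.48 in the Garonne. Gironde and river fish overlapped and differed by -0.11 (SE 0.16, adjusted p = 0.803). contig_33219 was lower at high salinity, by -0.66 (SE 0.17, adjusted p = 0.0362). This call was lost in 13 of 20 settings, 6 of them on leaving out 1 of 9 fish, and the size fell to -0.17 (adjusted p = 0.602) with the other 8 treatments as baseline. contig_33219 differed by 0.07 (SE 0.13, adjusted p = 0.834) between the Gironde and the rivers. Its fish-channel signals were at background in Garonne replicates 4 (1) and 5 (-5). contig_11347 was higher at high salinity, by 1.44 (SE 0.31, limma adjusted p = 0.00715). That call was lost in 6 of 20 settings. These include median centring (0.66, adjusted p = 0.544), the authors' values (0.64, adjusted p = 0.509) and the other 8 treatments as baseline (0.48, adjusted p = 0.302). Between the Gironde and the rivers contig_11347 differed by 0.10 (SE 0.28, adjusted p = 0.883).

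Whether the estuary difference and the salinity difference were unequal was tested directly, as a difference of differences over 82 fish. They differed at 17 of 992 contigs (1.71%), with the estuary difference above the salinity difference at 3 and below it at 14. An unadjusted p under 0.05 was reached by 16.7% of contigs. With pool brightness as a covariate 16 contigs passed, all of them among the 17. Of the 17, 4 also passed in the estuary contrast and 7 in the salinity contrast. For the 14, the median estuary difference was -0.339 and the median salinity difference 0.914, the larger of the 2 in size, and 6 of the 14 passed in neither contrast. Only 8 of the 14 had signal above background in both channels on nearly all arrays of each group compared. All 3 of the others did. The 14 therefore include contigs measured near background, and their excess over the 3 is uncertain.

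contig_20175 had the most negative such value, at -3.13 (SE 0.67, limma adjusted p = 0.00337). It is made of -2.16 in the estuary and 0.98 at high salinity, and it stayed past the threshold under all 36 alternatives, between -3.56 and -2.18. Without control replicate 2, whose 3 spots disagreed, the value was -2.83 (limma adjusted p = 0.0171). contig_14911 had 2.32 (SE 0.58, adjusted p = 0.0215), made of 2.26 in the estuary and -0.06 at high salinity. That call was lost without Gironde replicate 2 (1.95) or 3 (2.06) or without high salinity replicate 5 (2.09), and also with median centring (2.13, adjusted p = 0.140) or no background subtraction (1.46, adjusted p = 0.118). Without high salinity replicate 4 the value was 2.76. contig_18206 also passed (adjusted p = 0.00412), but its fish channel was saturated on 5 of 5 high salinity and 4 of 5 Gironde arrays, so its fitted difference is not a measured size.

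contig_26357 was at -0.87, -0.34, -0.24, 0.10 and -0.44 in Gironde fish. It was at -0.11, 0.14, -0.06, 0.02 and -0.26 in Dordogne fish and at 0.50, 0.22, 0.24, -0.14 and 0.54 in Garonne fish. In the laboratory it was at -0.07, -0.08, -0.93, -0.04 and -0.33 in high salinity fish and at -0.61, -1.26, -1.23 and -1.59 in control fish. The estuary difference of -0.47 (SE 0.25, limma adjusted p = 0.419) and the salinity difference of 0.88 (SE 0.29, adjusted p = 0.125) each missed the threshold, and the difference between them was -1.35 (SE 0.39, adjusted p = 0.0484). That call was lost in 18 of 24 cases on leaving out 1 fish and in 27 of all 36 settings, which ran from -1.54 to -0.36. The smallest size came from the authors' processed values (adjusted p = 0.755), and median centring gave -0.96 (adjusted p = 0.384). Without Garonne replicates 4 and 5 the differences were unequal at 11 contigs, and without high salinity replicate 4 at 24. Of the 5 groups, the control arrays had the lowest median number of contigs above background (713.5), and the part of this in the 17 calls was not tested.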

How the data were processed

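RNA of a single liver was labelled with Cy3 on each slide and the pool with Cy5, per the labels' protocols. The authors deposited spot intensity values, foreground and background for both channels, with no normalization, per the file headers. They ran from 4 to 65535. The authors also deposited processed log2 ratios, used here as an alternative only. Their scale was settled by recomputation as the log2 ratio of background-subtracted signals, fish over pool, centred on the array median. For 80 of 84 columns the result lay within 0.05 of the column of that fish, including all 15 French fish. Another 2 columns were exchanged inside the restricted diet group and 2 matched no scan. These 2 fish carried scans that repeat another fish's, and they were left out, giving 82 fish. The sources used here do not name the authors' software.

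Background was removed with normexp (offset 50), each array was normalized by loess, and the 3 spots of a contig were averaged (limma 3.58.1, R 4.3.3). A linear model with group means and moderated variances (lmFit, eBayes) was fitted to 992 contigs over 35 wild fish for sites, 47 laboratory fish for salinity and 82 fish for the difference of differences. Benjamini-Hochberg adjustment ran over all contigs of a comparison, with a threshold of 0.05. By rule, the 2 highest and 2 lowest contigs past the threshold were named per comparison. They needed signal above background on nearly all arrays and, except for the difference of differences, all fish of one group beyond the other group's mean. The comparisons, the rule and the lists were chosen with earlier results of these data known. Marker and pathway lists were not run, because contigs have no gene names. Mean ± SD is over fish, SE is from limma, and the labels call the fish individuals.

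As alternatives, arrays were centred on their median or left without background subtraction, and further ones were the authors' values, leaving out contigs under the 0.25 quantile of mean signal, fits over the compared groups alone, scaling between arrays, array weights, pool brightness as a covariate, another laboratory baseline, keeping the copied scans, and leaving out fish. Leaving out saturated contigs was chosen after seeing the data.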

Additional observations from a re-analysis of the deposited data

Results flagged for a closer look

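Of 55 sets of values from groups of 4 or 5 fish that were tested for a single fish far from the others, 5 held one, where chance gives about 1 in 20. For contig_14911, Dordogne replicate 1 (-0.78) lay below the other 4 Dordogne fish, further from the Gironde. For contig_18434, high salinity replicate 4 (-3.04) and Gironde replicate 1 (0.67) stood away from their groups, and since the contig was saturated there these are not measured ratios. Gironde replicate 4 had 846 contigs above background in both channels, the fewest in its group, and Dordogne replicate 3 had 783. The count of estuary calls was 4 without Gironde replicate 4 and 10 without Dordogne replicate 3, against 11 with all fish.

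The estuary and the salinity differences differed from each other, by the test of the difference itself, at 17 contigs. The named ones are contig_14911 (2.32), contig_20175 (-3.13), contig_26357 (-1.35) and contig_18206 (1.72 as fitted, not a measured size because of saturation).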

How the results depend on the processing

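Both the counts of contigs past the threshold and the sizes of the named differences depended on the processing. Over 25 settings the estuary difference ran from 1.56 to 2.695 for contig_14911 and from -2.13 to -0.40 for contig_33258. No contig changed sign, under any setting tried, in a comparison for which the rule named it. Other differences could. Without high salinity replicate 4 the salinity difference went from 0.40 to -0.21 for contig_2179 and from 0.016 to -0.09 for contig_33258. Estuary against rivers (11) gave 9 with median centring, 2 higher and 7 lower, of which 5 were among the 11. It gave 0 with no background subtraction (88 at an unadjusted p under 0.05), 1 with the authors' processed values (contig_14911), 7 with scaling between arrays, 4 with pool brightness as a covariate, and 4 to 12 on leaving out each fish (4 without Gironde replicate 2 or 4, 5 without Gironde replicate 3).

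Estuary against Dordogne (7) gave 11 with median centring, 2 with no background subtraction, 31 with array weights, 4 without saturated contigs, and 2 to 13 on leaving out each fish. Estuary against Garonne (1) gave 2 with array weights, 0 with median centring, no background subtraction, only the groups compared, scaling between arrays or pool brightness as a covariate (71, 99, 98, 98 and 74 at an unadjusted p under 0.05 by limma), and 0 to 6 on leaving out each fish. Garonne against Dordogne (0) gave 1 with the authors' processed values, 2 with scaling, 1 with array weights, and 0 to 2 on leaving out each fish.

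Salinity against control (14) gave 2 with median centring, 8 with the authors' values, 7 without dim contigs, 1 with only the groups compared, 4 with scaling, 26 with array weights, 42 with the other 8 treatments as baseline, and 4 with the copied scans kept. It gave 5 to 20 on leaving out each fish (7 and 6 without high salinity replicates 2 and 5, 9 and 5 without control replicates 3 and 4). The difference of differences (17) gave 7 with median centring, 5 with no background subtraction, 5 with scaling, 11 without Garonne replicates 4 and 5, 28 with the other 8 treatments as baseline, and 8 to 31 on leaving out each fish. It gave 10 and 8 without Gironde replicates 1 and 2, 10 and 9 without high salinity replicates 1 and 5, and 31 and 10 without control replicates 2 and 3. The correlation of both differences (-0.096) was -0.017 with no background subtraction, -0.026 with the authors' values, -0.048 with scaling, -0.031 with the other 8 treatments as baseline, and -0.165 to -0.033 on leaving out each fish.

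The cause of these shifts was not tested. Slide as a block could not be fitted, since each slide held 1 array. No paired analysis was possible because the titles give only fish identifiers and replicate numbers follow accession order.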
